A study of Homo sapiens with 8 samples.

Results

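IL31RA, OSMR and gp130 are receptor chains through which cytokines of the interleukin-6 family signal, and this account follows their mRNAs, with those of the kinase, the transcription factor and the feedback inhibitor downstream, in tumours of MDA-MB-231 cells. MDA-MB-231 is a human cell line of triple-negative breast cancer. 8 genes were followed of 13546 in the count table: IL31RA, OSMR, IL6ST (which encodes gp130), LIFR, IL6R, JAK1, STAT3 and SOCS3, and 8 of 8 were in the table. IL31RA was chosen by its measured level in these same libraries, where it was higher in CDK4KO than in CDK4WT tumours. The other 7 were listed by name. OSMR is its partner, IL6ST, LIFR and IL6R are other receptor chains of the family, and JAK1, STAT3 and SOCS3 lie downstream. IL31RA is therefore described with no test, and the difference that chose it supports nothing here.

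The tested tumours grew from cells labelled CDK4KO and the comparison tumours from cells labelled CDK4WT, with 4 libraries of each genotype, all after injection into nude mice. CDK4 is the cyclin D-dependent kinase of the G1/S transition. The labels state neither how CDK4 was disrupted, nor whether the line was a clone or a pool, nor whether each tumour came from its own mouse, so every p-value is set against the spread of these libraries alone, which may be partly technical. Nude mice lack a thymus and so most T cells, and keep macrophages, natural killer cells, fibroblasts and vessels. RNA came from whole tumours, where fewer cells of a type and less RNA per cell cannot be told apart.

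The receptors of this family work as assemblies. gp130 is the shared chain for interleukin-6, interleukin-11, LIF and oncostatin M, and it pairs with IL6R, LIFR or OSMR according to the ligand. IL31RA, a relative of gp130, pairs instead with OSMR to bind interleukin-31, a cytokine made mainly by T helper cells and known for itch, so OSMR is shared between the oncostatin M and interleukin-31 receptors. The bound chains activate Janus kinases, JAK1 among them, which phosphorylate STAT3, and STAT3 induces SOCS3, whose protein blocks the same receptors.

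The 4 chains IL31RA, IL6ST, LIFR and OSMR lie on chromosome 5 in 2 neighbouring pairs (hg38, GENCODE 29 annotation). IL31RA (ENSG00000164509, plus strand, 55851379 to 55922853) and IL6ST (ENSG00000134352, minus strand, 55935095 to 55994993) end 12.2 kb from each other. LIFR (ENSG00000113594, minus strand, 38474963 to 38608354) and OSMR (ENSG00000145623, plus strand, 38845858 to 38945596) point away from each other across 238 kb. IL6R (ENSG00000160712) occupies 154405193 to 154469450 on chromosome 1, and JAK1 (ENSG00000162434) occupies 64833229 to 64966504 there. STAT3 (ENSG00000168610) occupies 42313324 to 42388568 on chromosome 17, and SOCS3 (ENSG00000184557) occupies 78356778 to 78360077 there. All are protein-coding. Exons of OSMR share 3.19% of their length with RICTOR, those of IL6ST 8.58% and those of LIFR 5.3% with antisense genes, each on the other strand, and those of JAK1 0.0633% with RAVER2, so a small part of those counts is uncertain if the counting did not use strand.

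Promoter windows of 300 bases from RefSeq (GRCh38.p14) were found for 7 of the 8 genes, 12 windows in all. The window of OSMR, chr5:38845762-38846061 on the plus strand, is shown because it also holds the start of OSMR-DT, a transcript that runs the other way. The capitals mark the 30 bases from the annotated start of OSMR-DT to that of OSMR in GENCODE 29.

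OSMR: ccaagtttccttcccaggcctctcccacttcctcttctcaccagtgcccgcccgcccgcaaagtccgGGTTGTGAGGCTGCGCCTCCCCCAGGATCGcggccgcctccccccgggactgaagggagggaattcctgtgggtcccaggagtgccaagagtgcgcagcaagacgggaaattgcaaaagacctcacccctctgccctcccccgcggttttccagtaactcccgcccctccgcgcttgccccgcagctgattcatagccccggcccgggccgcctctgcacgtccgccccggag

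STAT factors bind the letters TTCNNNGAA, which read the same on both strands. Of the 12 windows, 2 held them, both at alternative starts of LIFR. Of the 35116 RefSeq windows searched, which did not cover every chromosome, 7.66% did. A match is a description of letters and not a shown binding site, and it gives no information on STAT3 activity. The windows lie at chr5:38557418-38557717 and chr5:38595356-38595655 on the minus strand, and are printed 5′ to 3′ with the matching letters in capitals.

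LIFR, first window: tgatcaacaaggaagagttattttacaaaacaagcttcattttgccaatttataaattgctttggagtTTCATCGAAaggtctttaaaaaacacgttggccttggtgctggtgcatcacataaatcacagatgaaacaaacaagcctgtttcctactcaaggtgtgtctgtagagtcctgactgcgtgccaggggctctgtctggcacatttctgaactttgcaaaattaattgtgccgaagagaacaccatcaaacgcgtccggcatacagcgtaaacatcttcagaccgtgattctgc

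LIFR, second window: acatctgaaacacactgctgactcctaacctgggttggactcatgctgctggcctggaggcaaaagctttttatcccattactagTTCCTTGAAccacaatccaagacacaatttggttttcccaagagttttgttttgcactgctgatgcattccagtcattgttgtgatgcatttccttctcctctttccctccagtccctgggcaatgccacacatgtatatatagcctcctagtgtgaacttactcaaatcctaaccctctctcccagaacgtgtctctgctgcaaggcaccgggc

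The libraries held 27840883 to 33617977 counts. Levels are given as counts scaled to a common TMM-adjusted library size (CPM). CDK4 mRNA stood at 111, 119, 125 and 134 CPM in CDK4KO tumours and at 115, 107, 116 and 112 CPM in CDK4WT tumours (replicates 1 to 4; log2 fold change 0.12 ± 0.06, SE; edgeR quasi-likelihood test, adjusted p = 0.477). A message level does not check a knockout made by a small edit. On the first principal component CDK4KO libraries lay at -27.1 to -1.15 and CDK4WT libraries at 4.05 to 15.4. CDK4KO replicate 4 was the lowest there, and CDK4KO replicate 3 followed at -12.9. CDK4KO replicate 1 stood apart on the second principal component, at -31.3 against -1.49 to 9.54 in the other 7 libraries. The summed level of 5 line markers (VIM, CD44, AXL, MSN and CAV1) was 10914 to 15262 CPM in CDK4KO and 12699.5 to 15305 CPM in CDK4WT, a log2 ratio of -0.11 that was -0.21 without CDK4KO replicate 1. Of the hormone receptor and HER2 markers, ERBB2 was at 95.4 to 109 CPM in CDK4KO and 96.1 to 102 CPM in CDK4WT, and ESR1 and PGR were not analysed here.

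IL31RA was higher in every CDK4KO tumour than in every CDK4WT tumour, by 1.27-fold. It stood at 94.0, 99.2, 99.8 and 105 CPM in CDK4KO and at 76.0, 81.2, 79.3 and 76.3 CPM in CDK4WT, replicates 1 to 4. The lowest CDK4KO tumour was thus above the highest CDK4WT tumour. Means were 99.5 CPM ± 4.46 in CDK4KO and 78.2 CPM ± 2.53 in CDK4WT (SD, n = 4 each), a log2 fold change of 0.35 ± 0.05 (SE). Complete separation of the genotypes occurred in 7.68% of all 13546 genes, and 469 genes, or 3.46%, had a log2 fold change at or above that of IL31RA. Its counts of 2200 to 3297 per library leave little counting error. The log2 fold change was 0.32 to 0.37 when each library was left out in turn.

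**Figure D1:**
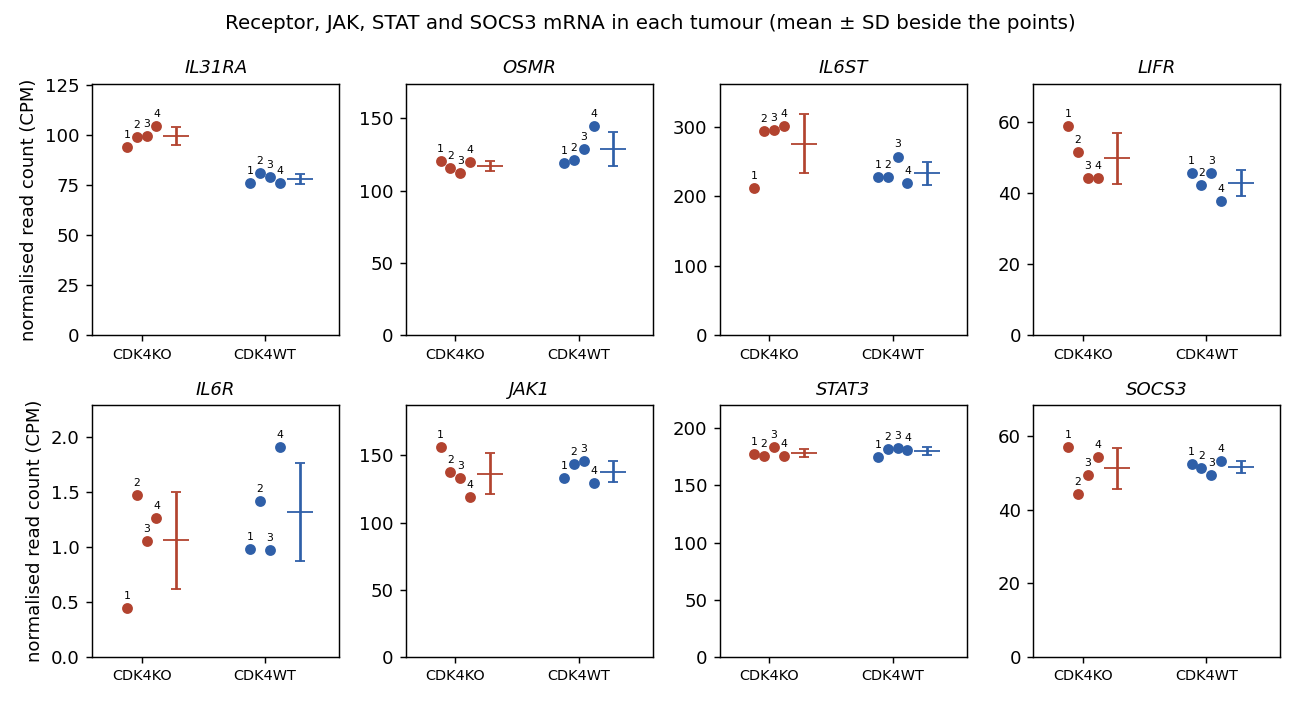
Normalised read count (CPM, vertical axis from 0) of each gene in the 4 CDK4KO tumours (red) and the 4 CDK4WT tumours (blue), with replicate numbers at the points and mean ± SD beside them. The CDK4KO points of IL31RA, 94.0 to 105 CPM, lie above all CDK4WT points, 76.0 to 81.2 CPM, while the genotypes overlap in the other 7 genes.

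OSMR, the chain that IL31RA needs for interleukin-31, was not higher in CDK4KO tumours. It had 120.3, 116, 112 and 119.6 CPM in CDK4KO and 119, 121, 129 and 145 CPM in CDK4WT. The genotypes overlapped, and CDK4WT replicate 4 was the highest of the 8. Means were 117 CPM ± 3.72 in CDK4KO and 128 CPM ± 11.8 in CDK4WT (SD, n = 4 each), with a log2 fold change of -0.13 ± 0.07 (SE) that did not pass edgeR's quasi-likelihood test (adjusted p = 0.434). Without CDK4WT replicate 4 the log2 fold change was -0.07.

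IL6ST, the shared gp130 chain, had 212, 295, 296 and 302 CPM in CDK4KO and 228, 228, 258 and 220.0 CPM in CDK4WT. CDK4KO replicates 2, 3 and 4 lay above all CDK4WT tumours, and CDK4KO replicate 1 lay below all of them. Means were 276 CPM ± 42.8 in CDK4KO and 233 CPM ± 16.6 in CDK4WT (SD, n = 4 each). The log2 fold change of 0.24 ± 0.11 (SE) did not pass the edgeR test over all genes (adjusted p = 0.372). Without CDK4KO replicate 1 it was 0.35 and passed (adjusted p = 0.0339), in a fit that called 183 genes, or 1.35% of all.

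LIFR, which joins gp130 to bind LIF, had 59.0, 51.6, 44.3 and 44.2 CPM in CDK4KO and 45.7, 42.4, 45.7 and 37.8 CPM in CDK4WT. CDK4KO replicates 1 and 2 were the highest of the 8, and replicates 3 and 4 lay within the CDK4WT range. The log2 fold change was 0.22 ± 0.10 (SE; edgeR adjusted p = 0.406), and 0.12 without CDK4KO replicate 1. In CDK4KO replicate 1, LIFR was thus at its highest and IL6ST at its lowest among the CDK4KO tumours. IL6R, the interleukin-6-binding chain, was close to the floor of the table, with 13 to 55 counts per library. It had 0.444, 1.47, 1.05 and 1.26 CPM in CDK4KO and 0.984, 1.42, 0.968 and 1.91 CPM in CDK4WT, with overlap and a log2 fold change of -0.31 ± 0.34 (SE; edgeR adjusted p = 0.741). That value rested on single libraries, being -0.06 without CDK4KO replicate 1, -0.51 without CDK4KO replicate 2 and -0.09 without CDK4WT replicate 4, and it was -0.00045 by limma voom.

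Downstream of the receptors, JAK1, STAT3 and SOCS3 had log2 fold changes of -0.02 ± 0.08, -0.02 ± 0.05 and -0.01 ± 0.08 (SE), and none passed the edgeR test (adjusted p = 0.951, 0.916 and 0.973). JAK1, a kinase bound to these receptors, had 156, 137, 133 and 119 CPM in CDK4KO and 133, 144, 146 and 129 CPM in CDK4WT. STAT3, the transcription factor they activate, had 177, 176, 183 and 176 CPM in CDK4KO and 175, 182, 183 and 181 CPM in CDK4WT. The STAT3 tumours lay close together, with an SD of 3.55 CPM in CDK4KO and 3.46 CPM in CDK4WT. SOCS3, the inhibitor that STAT3 induces, had 57.0, 44.3, 49.6 and 54.3 CPM in CDK4KO and 52.3, 51.5, 49.6 and 53.2 CPM in CDK4WT. The CDK4KO tumours held both the highest and the lowest SOCS3 value, and the SD was 5.58 CPM in CDK4KO and 1.55 CPM in CDK4WT. Both JAK1 and SOCS3 changed sign when some single libraries were left out. STAT3 activity depends on phosphorylation, which mRNA counts do not measure.

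Of the 7 genes other than IL31RA, 0 passed edgeR's test at an adjusted p of 0.05, where 0.0591% of all genes (8 of 13546) passed. At an unadjusted p of 0.05, 1 of the 7 (IL6ST) passed, against 13.0% of all genes. DESeq2 and limma voom with library quality weights also called 0 of the 7, where they called 2.33% (315) and 2.10% (285) of all genes tested.

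Levels of different genes were compared per kb of merged exons. In CDK4KO tumours IL6ST was highest at 29.7 CPM per kb ± 4.60, followed by IL31RA at 21.7 ± 0.976, JAK1 at 21.6 ± 2.43, STAT3 at 20.2 ± 0.403, SOCS3 at 18.8 ± 2.04 and OSMR at 16.3 ± 0.518 (SD, n = 4). In CDK4WT tumours the order was IL6ST at 25.1 CPM per kb ± 1.78, JAK1 at 21.9 ± 1.29, STAT3 at 20.4 ± 0.393, SOCS3 at 18.9 ± 0.566, OSMR at 17.9 ± 1.64 and IL31RA at 17.1 ± 0.552 (SD, n = 4). In CDK4KO, IL31RA and JAK1, JAK1 and STAT3, and STAT3 and SOCS3 differed by less than the larger SD of each pair, as did SOCS3 and OSMR, and OSMR and IL31RA, in CDK4WT. LIFR followed at 4.20 CPM per kb ± 0.598 in CDK4KO and 3.61 ± 0.314 in CDK4WT, and IL6R at 0.164 ± 0.0689 in CDK4KO and 0.204 ± 0.0687 in CDK4WT. The tumours thus held IL31RA message at a level per length near that of OSMR and JAK1, and far above that of IL6R. These lengths merge all annotated exons, so a gene whose long isoforms are unused is understated.

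**Figure D2:**
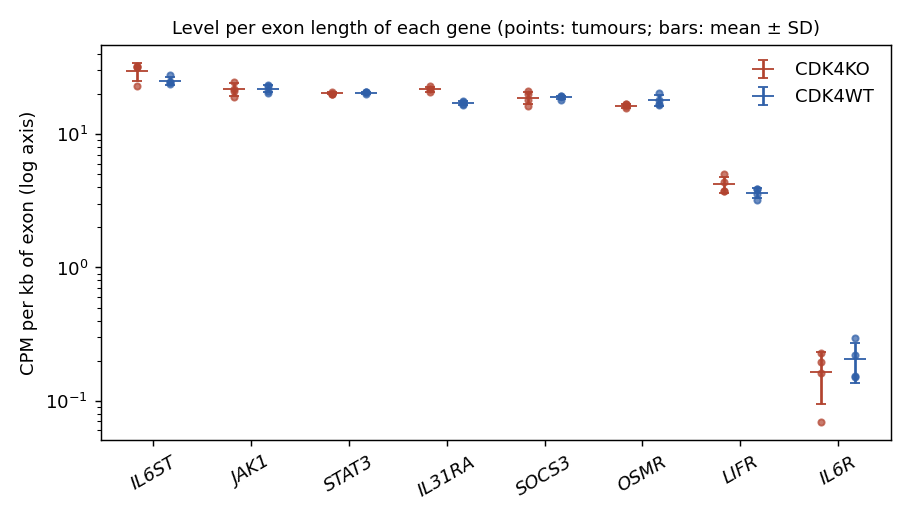
Level per exon length (CPM per kb, log axis) of each gene, ordered by its mean over all 8 tumours, with CDK4KO (red) left of CDK4WT (blue), points for tumours and bars for mean ± SD. 6 genes lie between 15.6 and 32.5 CPM per kb, with LIFR and then IL6R below them.

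The balance of IL31RA to OSMR, its partner, was higher in every CDK4KO tumour than in every CDK4WT tumour. The ratio of their levels per kb was 1.23, 1.34, 1.39 and 1.38 in CDK4KO and 0.9999, 1.05, 0.967 and 0.825 in CDK4WT, with no overlap. On the log2 scale the ratio was 0.48 higher in CDK4KO (0.41 to 0.52 with each library left out, an alternative added after seeing the data). This ratio uses the IL31RA difference that chose the gene and was not tested. The ratio of IL31RA to IL6ST was 0.899, 0.683, 0.686 and 0.705 in CDK4KO and 0.675, 0.724, 0.625 and 0.704 in CDK4WT. These overlapped, and only CDK4KO replicate 1 stood outside the CDK4WT range. The log2 ratio of IL31RA to IL6ST was 0.12 higher in CDK4KO, and 0.02 higher without that library. The ratio to LIFR was 4.13, 4.98, 5.84 and 6.16 in CDK4KO and 4.31, 4.97, 4.50 and 5.23 in CDK4WT, again with overlap.

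**Figure D3:**
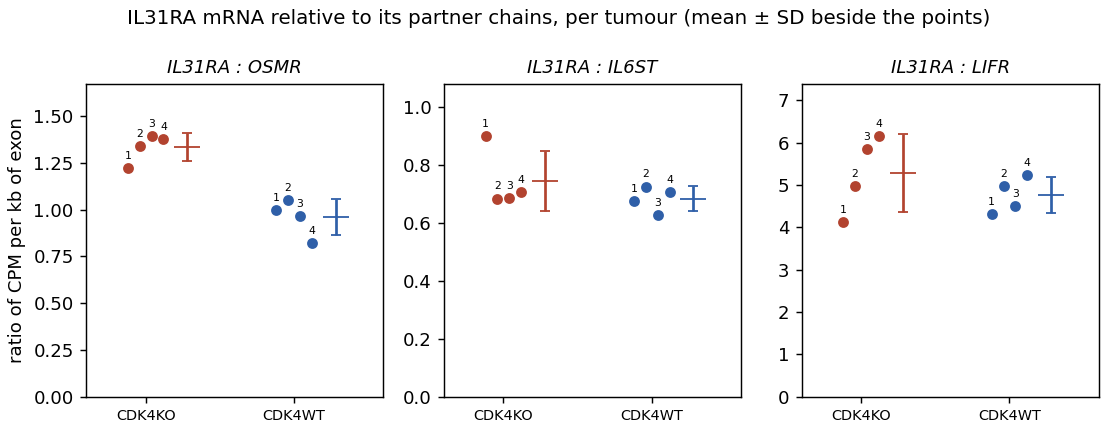
Ratio of IL31RA to OSMR, IL6ST and LIFR in levels per kb of exon (vertical axis from 0), per tumour, with replicate numbers and mean ± SD, CDK4KO left of CDK4WT. The IL31RA to OSMR ratio is 1.23 to 1.39 in CDK4KO and 0.825 to 1.05 in CDK4WT, and the other ratios overlap.

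Neighbouring genes did not share one direction around IL31RA. The other 11 measured genes within 1 Mb, IL6ST among them, had a median log2 fold change of 0.05, 7 were positive, and 0 passed the edgeR test over all genes. SLC38A9, an amino acid transporter and the nearest measured gene on the left, stood at 0.03 ± 0.06, and IL6ST on the right at 0.24 ± 0.11. GPX8, of the glutathione peroxidase family, separated the genotypes, as did 7.68% of all genes. It stood at 90.3 CPM ± 5.82 in CDK4KO and 79.4 CPM ± 2.45 in CDK4WT (log2 fold change 0.19 ± 0.06, SE; edgeR adjusted p = 0.236). ESM1, an endothelial cell marker, had 57.3 CPM ± 30.05 in CDK4KO and 33.9 CPM ± 5.73 in CDK4WT (0.76 ± 0.38, SE; edgeR adjusted p = 0.442).

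Around OSMR, the other 5 measured genes within 1 Mb, LIFR among them, all had positive log2 fold changes, from 0.11 to 0.55 with a median of 0.17, while OSMR was at -0.13. None of the 5 passed the edgeR test. OSMR-DT, whose start lies beside that of OSMR in the printed window, had 1.50, 2.23, 2.33 and 2.72 CPM in CDK4KO and 1.87, 1.21, 1.51 and 1.42 CPM in CDK4WT. CDK4KO replicates 2, 3 and 4 were above all CDK4WT tumours and replicate 1 was not, and the log2 fold change was 0.55 ± 0.21 (SE; edgeR adjusted p = 0.314). RICTOR, a subunit of mTOR complex 2 whose last exons overlap those of OSMR, stood at 0.17 ± 0.09.

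**Figure D4:**
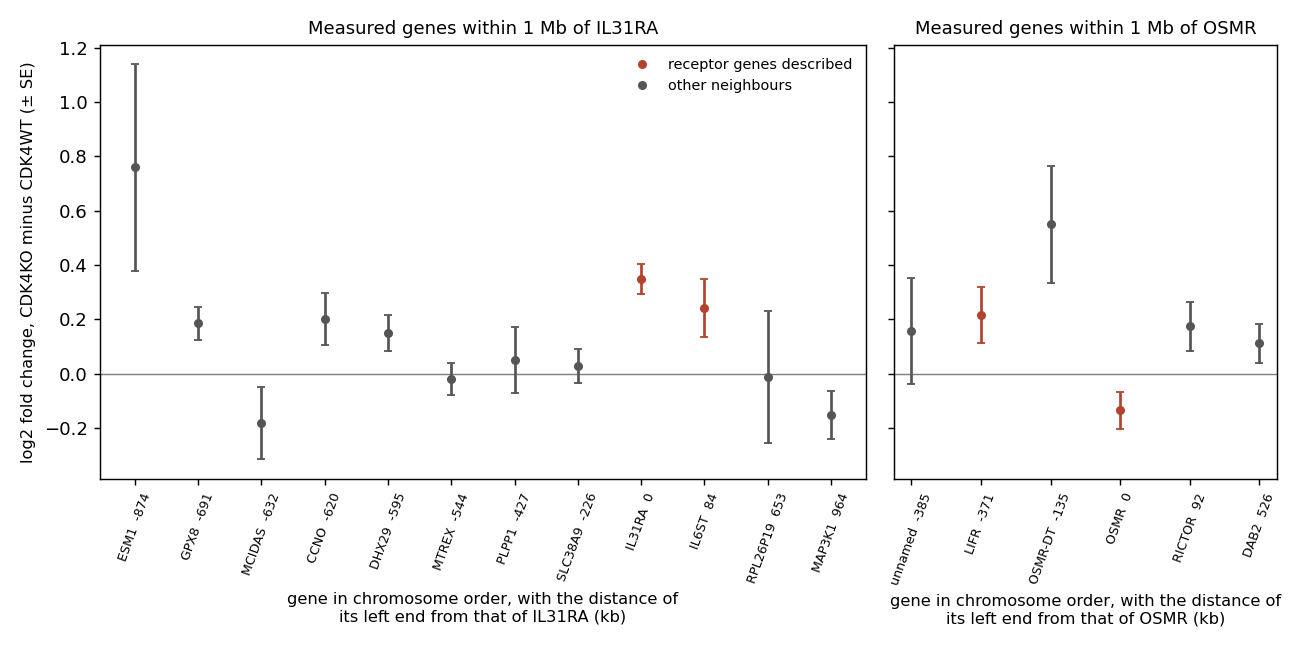
Log2 fold change, CDK4KO minus CDK4WT, ± SE (vertical axis) of the measured genes within 1 Mb of IL31RA (left) and of OSMR (right) in chromosome order, with their distance in kb. IL31RA (0.35) and IL6ST (0.24) stand beside neighbours on both sides of 0, and OSMR (-0.13) beside neighbours above 0.

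The wider pathway was described from a list of 66 further genes by role, of which 54 were measured. None passed the edgeR test over all genes, 27 had positive and 27 negative log2 fold changes, and the median was -0.01 (0.00 over all genes tested). At an unadjusted p of 0.05, 7 of the 54 passed (13.0%, against 13.0% of all genes), and 2 of the 54 separated the genotypes completely (3.70%, against 7.68% of all genes).

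Among ligands, 7 of 11 were measured and 5 were positive, with a median of 0.11. CLCF1, a ligand of the CNTF receptor, had 34.3, 32.9, 34.2 and 42.3 CPM in CDK4KO and 28.3, 28.4, 30.1 and 33.5 CPM in CDK4WT, with overlap through CDK4WT replicate 4 (log2 fold change 0.26 ± 0.09, SE; edgeR adjusted p = 0.278). IL11 and CTF1 (cardiotrophin-1) stood at -0.26 ± 0.18 and -0.10 ± 0.13. IL11 was at -0.12 without CDK4KO replicate 2, -0.11 without CDK4WT replicate 2 and -0.38 without CDK4KO replicate 3. CTF1 was at -0.22, -0.04 and -0.03 without CDK4KO replicates 1, 2 and 4 in turn, and CLCF1 at 0.17 without CDK4KO replicate 4. LIF, a ligand of the LIFR and gp130 pair, was at 78.3 CPM ± 12.8 in CDK4KO and 77.7 CPM ± 9.29 in CDK4WT, and IL6 at 2.71 CPM ± 0.740 in CDK4KO and 2.40 CPM ± 0.689 in CDK4WT (SD, n = 4 each; both chosen after their values were seen). IL31, OSM, IL27 and EBI3 were not analysed here.

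Of the other receptors, LEPR (leptin receptor) and IL11RA stood at -0.27 ± 0.15 and -0.23 ± 0.17, and IL27RA at 0.22 ± 0.13 (edgeR adjusted p from 0.486 to 0.604). LEPR was at -0.41 without CDK4WT replicate 4 and -0.42 by limma voom, but at -0.19 without CDK4WT replicate 1 or 3. IL11RA was at -0.15 without CDK4WT replicate 1 and -0.33 without CDK4KO replicate 4. IL27RA was at 0.32 without CDK4KO replicate 1 and 0.09 without CDK4KO replicate 4. Kinases and adaptors were measured in 8 of 8, with 6 positive and a median of 0.09. JAK3, a kinase best known from lymphocytes, was at 1.57, 1.47, 1.41 and 1.04 CPM in CDK4KO and 2.19, 1.71, 1.76 and 1.91 CPM in CDK4WT, without overlap (-0.46 ± 0.18, SE; edgeR adjusted p = 0.318). GAB1 and SHC1, which couple gp130 to RAS and MAPK signalling, stood at 0.18 ± 0.07 and 0.22 ± 0.09, with SHC1 at 0.13 without CDK4KO replicate 4. Of the other STAT factors, STAT6 was at 0.14 ± 0.07 (0.09 without CDK4KO replicate 4) and STAT5B at -0.10 ± 0.06 (-0.06 by limma voom). Inhibitors were split, with 7 positive and 7 negative of 14, and SOCS2, SOCS4 and PIAS4 at -0.32 ± 0.18, 0.16 ± 0.10 and 0.09 ± 0.07. SOCS2 was at -0.55 without CDK4KO replicate 4 and at -0.22 without CDK4KO replicate 1 or 2. SOCS4 was at 0.08 without CDK4WT replicate 4 and PIAS4 at 0.05 without CDK4WT replicate 3.

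Genes known to be induced through STAT3 did not share one direction, with 7 positive and 10 negative of 17 measured and a median of -0.04. The 3 with the smallest p were all lower in CDK4KO means, and none passed the edgeR test. VEGFA, which encodes the angiogenic factor VEGF-A and also answers to hypoxia, had 230.0, 271, 191 and 189 CPM in CDK4KO and 289, 283, 348 and 363 CPM in CDK4WT, without overlap (-0.54 ± 0.13, SE; edgeR adjusted p = 0.133). NNMT, nicotinamide N-methyltransferase, had 1.85, 3.04, 1.94 and 1.82 CPM in CDK4KO and 6.10, 4.54, 5.95 and 2.60 CPM in CDK4WT (-1.15 ± 0.27, SE; edgeR adjusted p = 0.143). PIM1, a serine/threonine kinase, had 48.4, 52.4, 41.0 and 33.5 CPM in CDK4KO and 48.8, 54.5, 64.9 and 70.2 CPM in CDK4WT (-0.44 ± 0.15, SE; edgeR adjusted p = 0.266). In VEGFA and PIM1, CDK4WT replicates 3 and 4 were the highest. DESeq2, which called 2.33% of all genes tested (315), called VEGFA and NNMT as lower (adjusted p = 0.00413 and 0.00767).

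**Figure D5:**
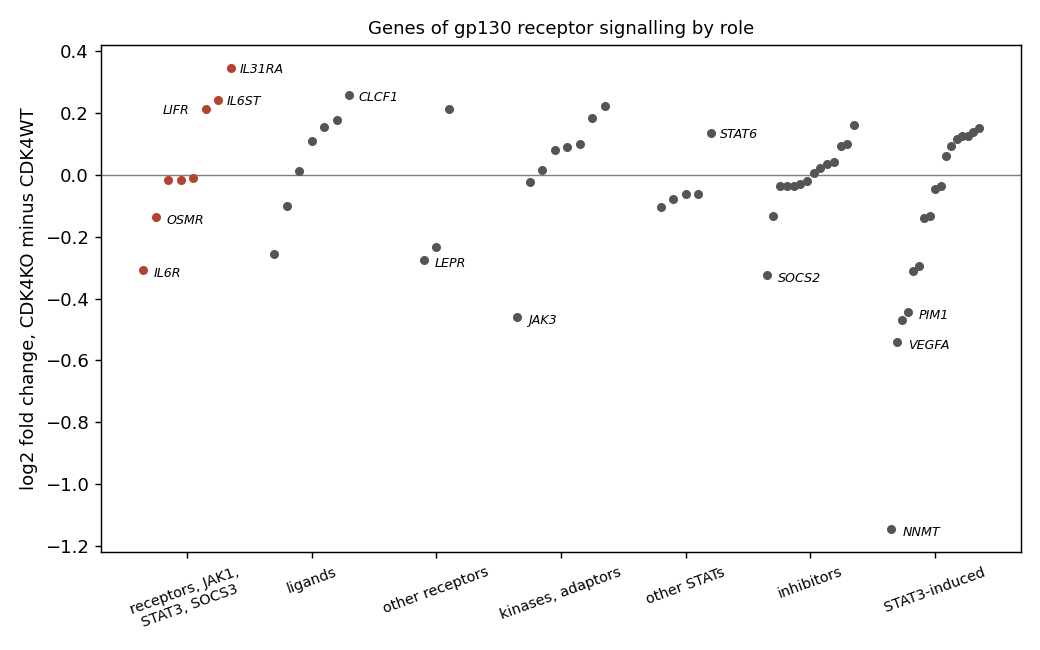
Log2 fold change, CDK4KO minus CDK4WT (vertical axis), of the 8 genes followed (red) and of 54 further measured genes by role (grey), each point 1 gene. Points of each role lie on both sides of 0, from NNMT at -1.15 to IL31RA at 0.35.

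By Pearson's r over the 8 libraries (log2 CPM, 13489 genes with a mean of at least 1 CPM), the genes most like IL31RA were SPOCK2 (0.98), ZBTB47 (0.97), DUSP22 (0.97), ITPRIPL2 (0.97) and MPRIP (0.97). SPOCK2 was near the floor of the table, at 1.66 CPM ± 0.185 in CDK4KO and 0.850 CPM ± 0.121 in CDK4WT. It exceeded 1 CPM in the CDK4KO tumours alone. MPRIP, a myosin phosphatase-interacting protein, was at 694 CPM ± 64.1 in CDK4KO and 533 CPM ± 14.3 in CDK4WT. These r values largely reflect the genotype difference that chose IL31RA. After each genotype's mean was subtracted, TRMU (0.98), TEAD4 (0.98), NDUFS6 (0.97), ALYREF (0.97) and TRAP1 (0.96) were most like it. On that second measure r was 0.73 for IL6ST, 0.52 for IL6R, 0.20 for STAT3, -0.23 for OSMR, -0.24 for SOCS3, -0.48 for JAK1 and -0.54 for LIFR. CDK4KO replicate 1 was the lowest CDK4KO tumour for both IL31RA (94.0 CPM) and IL6ST (212 CPM). All 8 points share scaling and depth, and no significance is attached to these r values.

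Summed human markers of other cell types that could hold these receptors did not separate the genotypes. Host cells of these tumours are of the mouse, and reads were aligned to the human genome (hg38). How reads of mouse origin were handled is not known, so these sums cannot show whether host cell content was alike. Macrophage and leukocyte markers, 5 of 10 in the table (PTPRC, CD14, CSF1R, LYZ and AIF1), summed to 20.9 to 23.0 CPM in CDK4KO and 17.7 to 29.9 CPM in CDK4WT (exact permutation test, two-sided, p = 0.629). Keratinocyte markers, 4 of 6 (KRT5, KRT14, KRT10 and TP63), summed to 35.3 to 48.9 CPM in CDK4KO and 39.7 to 55.8 CPM in CDK4WT (exact permutation p = 0.171). KRT10 held most of that sum, with means of 33.1 CPM in CDK4KO and 37.8 CPM in CDK4WT. KRT5 ranged from 0.0903 to 6.90 CPM and KRT14 from 0.395 to 9.12 CPM over all libraries. Endothelial markers, 4 of 5 (PECAM1, VWF, KDR and TEK), summed to 20.4 to 26.1 CPM in CDK4KO and 20.4 to 21.8 CPM in CDK4WT (exact permutation p = 0.171, and 0.0286 without CDK4KO replicate 3). Fibroblast markers, 4 of 6 (COL1A1, COL1A2, COL3A1 and PDGFRB), summed to 682 to 1178 CPM in CDK4KO and 775 to 1192 CPM in CDK4WT (exact permutation p = 0.857). Of 5 sensory neuron markers, TRPV1 alone was measured, at 15.4 to 22.6 CPM in CDK4KO and 16.1 to 19.4 CPM in CDK4WT (exact permutation p = 0.514). The line and ERBB2 sums given above had exact permutation p of 0.371 and 0.343. The other markers of these lists were not analysed here. The smallest p that 4 against 4 libraries allow is 0.0286, and the part of these cells in the IL31RA level was not tested.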

How the data were processed

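RNA from 8 tumours was made into mRNA libraries, and the authors deposited the reads per Ensembl gene as raw whole-number counts in 1 table. Reads were processed with cutadapt, STAR 2.7.11a and featureCounts 2.0.4 on hg38, and DESeq2 1.46.0 is also named, per the submitters' processing notes. No source used here gives the annotation release or strand setting, or says how reads of mouse origin were handled, so some counts may be of mouse transcripts. Every gene in the table exceeds 1 CPM in at least 4 libraries. Columns for CDK4KO were matched to replicates 1 to 4 through the numbers in the library names.

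Symbols were found for 13465 of 13546 identifiers and GENCODE 29 (hg38) coordinates for 13455. The test was edgeR 4.0.16's robust quasi-likelihood F test (R 4.3.3) after TMM scaling and filterByExpr, which removed 0 genes. A gene was called at a Benjamini-Hochberg adjusted p under 0.05, adjusted over 13546 genes. Log2 fold changes are CDK4KO minus CDK4WT, with the SE that the F statistic implies. CPM values use TMM library sizes, and the prior count of log2 CPM was 2. Library totals were 27840883 to 33617977, and genes at a few CPM, such as IL6R, also carry a large counting error. Levels per kb divide CPM by merged GENCODE 29 exon length. Marker sums were compared with exact permutation tests over 70 assignments. The steps were tested on simulated data.

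The genes followed and all lists were chosen with earlier results of these data known. Named genes are the 8 followed, CDK4, the 3 list genes per role with the smallest p and any that pass. The 5 genes most correlated with IL31RA on each measure are named too. Of measured neighbours within 1 Mb, those nearest, with the largest values or without overlap of the genotypes are described. A gene that this rule names is not reported here. Alternatives were DESeq2 1.42.0, limma 3.58.1 voom with quality weights, library size only, 2 other filters, the replicate number as a block and each library left out.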

Additional observations from a re-analysis of the deposited data

Results flagged for a closer look

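In groups of 4 libraries, 1 value was set apart from the other 3 by a gap that exceeded Dixon's critical share of the group's range on the log2 scale in 4 of 52 groups examined, where chance gives about 1 in 20. For IL6ST this was CDK4KO replicate 1, at 212 CPM, with a gap of 0.930 of the range. For CLCF1 it was CDK4KO replicate 4, at 42.3 CPM, with a gap of 0.835. For NNMT it was CDK4KO replicate 2, at 3.04 CPM, with a gap of 0.872. For SHC1 it was CDK4WT replicate 3, at 147 CPM, with a gap of 0.871.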

How the results depend on the processing

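The IL31RA log2 fold change ranged from 0.32 to 0.37 over 14 alternatives, and OSMR from -0.17 to -0.07, without a call. IL6ST ranged from 0.20 to 0.35 and was called without CDK4KO replicate 1 alone (0 to 1 of the 7 genes with each library left out). JAK1 and SOCS3 ranged from -0.0902 to 0.0430 and from -0.0659 to 0.0543 with each library left out. DESeq2 called 315 genes, limma voom 285 and library size only 14, against 8, and 0 to 183 were called with each library left out (183 without CDK4KO replicate 1, 17 without CDK4KO replicate 4, 0 without CDK4KO replicate 2 or CDK4WT replicate 4 and 1 without any of the others). Of wider pathway genes, DESeq2 called 2 (VEGFA and NNMT, log2 fold changes -0.54 and -1.15). With the replicate block 13 genes were called, 0 of them among the 7 or the wider list. Deviations of same-numbered libraries had correlations of -0.03 to 0.19, so the numbers were not taken as pairs. The log2 ratio of IL31RA to IL6ST was 0.0211 to 0.153 higher in CDK4KO with each library left out. Leaving out each library was an alternative added after seeing the data for the ratios of IL31RA to OSMR, IL6ST and LIFR alike. The median around OSMR was 0.0368 within 3 Mb, against 0.17 within 1 Mb. With each library left out, log2 ratios of marker sums ranged from -0.216 to 0.0324 (macrophage and leukocyte), -0.136 to 0.111 (fibroblast), 0.113 to 0.226 (endothelium), -0.417 to -0.221 (keratinocyte, exact permutation p of 0.0857 to 0.343), -0.211 to -0.0447 (line markers, exact permutation p of 0.0857 to 0.686), 0.0189 to 0.206 (sensory neuron) and 0.0278 to 0.0907 (ERBB2). Causes of these shifts were not tested.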
